A study of Mus musculus with 10 samples.

Results

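Neutrophils fill their granules in waves as they mature. Primary granule proteins such as myeloperoxidase are made by granulocyte-monocyte progenitors (GMPs) and promyelocytes, whereas the secondary (specific) and later granule proteins are switched on mainly at the myelocyte and metamyelocyte stages, with C/EBPε among the factors the specific granule genes depend on. Messenger RNA of the later wave in a sorted GMP sample is therefore read as a measure of how far along the granulocytic path its cells are, or of more mature cells in the sort.

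Genes of that later wave were followed in GMPs that had recently lost *Mpc2*, which encodes a subunit of the mitochondrial pyruvate carrier. The 10 were *Ltf*, *Camp*, *Ngp*, *Lcn2*, *Mmp8*, *Mmp9*, *S100a8*, *S100a9*, *Chil3* and *Fcnb*, out of 51717 annotated genes. They were chosen by name with no threshold on their values, but with earlier results of these data known. Reads were summed over all transcripts of each gene. All 10 passed the filter on low counts, which left 12381 genes to test. The question put to them was whether recent KO GMPs hold more or less of this late granule mRNA than WT GMPs.

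The series holds 10 bulk RNA-seq samples of male mouse CD45.2+ GMPs sorted from bone marrow chimeras, in which donor marrow had been engrafted into irradiated CD45.1 hosts. The 5 WT samples were ROSA26 CreER+/- and the 5 recent KO samples were Mpc2fl/fl; ROSA26 CreER+/-, all on a C57Bl6/N background, and mice of both groups had eaten tamoxifen chow for 2 wk. CreER from the *Rosa26* locus is active in nearly every cell type, so in donor-derived cells the deletion was not limited to myeloid cells. The floxed alleles came with the donor marrow and not with the hosts. The controls carried CreER and received tamoxifen as well. A WT sample came from 1 mouse, whereas a recent KO sample pooled 2 mice. The spread within the recent KO group is therefore a spread between pools, and pooling and genotype cannot be told apart.

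Each sample held 14033776 to 19745405 estimated reads. *Mpc2* itself was at 61.0 to 117 CPM (read counts scaled to the size and composition of each library) in WT samples and at 17.1 to 43.9 CPM in recent KO samples, with no overlap. The GMP label fit the primary granule transcripts, since *Mpo*, which encodes myeloperoxidase, was at 31830 to 69040 CPM in every sample. *Ly6g*, a surface marker of mature mouse neutrophils, was at 0.155 to 1.54 CPM. Across all genes, the quasi-likelihood test of edgeR (Benjamini-Hochberg adjustment) called 41 differences at an adjusted p under 0.05, of which 15 were higher and 26 lower in recent KO.

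None of the 10 late granule genes was among those calls, against a background of 0.331% of all genes tested. DESeq2 called 0 of the 10 as well, as did limma on log2 TPM of the 8 it could test, whereas edgeR without a filter on low counts called 4, *Ltf*, *Camp*, *Ngp* and *S100a9*, all higher. Of the 10, 8 had a positive log2 fold change and 2 a negative one, and the median was 0.93, compared with -0.002 over all genes, of which 49.6% were positive. At an unadjusted p under 0.05 in edgeR stood 5 of the 10, *Ltf*, *Camp*, *Ngp*, *S100a9* and *Mmp9*, all of them higher in recent KO, where 10.2% of all genes passed in either direction. For these 5 the exact two-sided permutation test on CPM gave p from 0.0635 (*Camp*) to 0.119 (*Ngp*). The WT and recent KO values overlapped for all 10, whereas 2.43% of all genes had groups that did not overlap. The 10 genes tended to move together from sample to sample, so they do not count as separate observations. The list was also drawn up with earlier results of these data known, so its shares beside those of all genes are a description only.

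The genes with the largest fold changes, *Ltf*, *Camp* and *Ngp*, lie near each other on chromosome 9 and encode proteins stored in secondary granules. *Ltf* encodes lactoferrin, an iron-binding protein. *Camp* encodes the precursor of the antimicrobial peptide CRAMP, and *Ngp* encodes neutrophilic granule protein, a member of the cystatin family. The bases just upstream of these genes and of *Fcnb*, whose fold change had the other sign, are shown. Members with fold changes of both signs, none of them called, can be compared there. Sequences and positions are those of RefSeq on GRCm38.p6 and end where the first annotated transcript begins. They run 5′ to 3′ on the strand of the gene, and capitals mark matches to a C/EBP motif, TTGCNNAA, or an ETS motif, GGAAGT, in either orientation.
Ltf (chr9:111019042-111019270, forward strand): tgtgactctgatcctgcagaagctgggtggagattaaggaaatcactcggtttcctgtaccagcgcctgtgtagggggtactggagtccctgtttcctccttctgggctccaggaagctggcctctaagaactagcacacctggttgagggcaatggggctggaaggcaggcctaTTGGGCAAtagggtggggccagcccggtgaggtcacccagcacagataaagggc
Ngp (chr9:110419558-110419746, forward strand): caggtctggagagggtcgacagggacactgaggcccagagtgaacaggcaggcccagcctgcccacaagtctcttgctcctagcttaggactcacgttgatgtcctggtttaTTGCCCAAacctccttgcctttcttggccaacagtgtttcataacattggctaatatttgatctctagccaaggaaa
Camp (chr9:109849618-109849706, reverse strand): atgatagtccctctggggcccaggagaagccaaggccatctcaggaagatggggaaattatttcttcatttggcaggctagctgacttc
Fcnb (chr2:28084886-28085128, reverse strand): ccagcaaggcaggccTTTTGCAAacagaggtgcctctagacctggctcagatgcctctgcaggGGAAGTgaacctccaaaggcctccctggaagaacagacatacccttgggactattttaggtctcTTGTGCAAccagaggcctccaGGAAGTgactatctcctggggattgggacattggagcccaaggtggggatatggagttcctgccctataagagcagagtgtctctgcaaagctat

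Over the 250 bases before the RefSeq start, 9 of the 10 genes had a promoter entry. The stretches printed above stop short of that start, by 61 bases for *Ngp* and 161 bases for *Camp*. The *Ngp* match at 11 bases is therefore not among the letters shown. The C/EBP letters occurred in 6 of the 9 (*Fcnb*, *Lcn2*, *S100a9*, *Mmp8*, *Ngp* and *Ltf*), while 9.56% of 32851 mouse promoters of that length held them. The ETS letters occurred in 5 of the 9 (*Fcnb*, *S100a8*, *S100a9*, *Chil3* and *Mmp8*), against 19.7% of all promoters. *Ltf*, whose C/EBP match lay 75 bases before the start, and *Ngp*, with matches 138 and 11 bases before it, held no ETS match, and *Camp* held neither motif. *Fcnb* held 2 of each, the C/EBP matches at 235 and 123 bases and the ETS matches at 187 and 102 bases. A match is a description of letters only. Genes of both signs of fold change held each motif.

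*Ltf* (chr9:111019271-111042767) was at 2.89, 5.49, 3.50, 1.09 and 2.51 CPM in WT replicates 1 to 5 and at 4.29, 29.5, 1.76, 8.71 and 12.6 CPM in recent KO replicates 1 to 5. Recent KO replicates 2, 4 and 5 lay above every WT sample, and replicate 3 lay below the WT median. The WT mean was 3.10 ± 1.61 CPM and the recent KO mean 11.4 ± 11.0 CPM (SD, n = 5 each). The log2 fold change was 1.84 ± 0.59 (SE), with an unadjusted p of 0.00777 and an adjusted p of 0.273 in the edgeR fit, and the exact two-sided permutation test on CPM gave p = 0.0873, the smallest possible with 5 against 5 being 0.00794. On TPM the estimate was smaller, at 0.78 by limma on log2(TPM + 1) and 1.07 on log2(TPM + 0.1).

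*Camp* (chr9:109847379-109849617) was at 4.16, 14.2, 9.80, 1.79 and 6.53 CPM in WT and at 23.1, 43.6, 1.86, 17.1 and 21.2 CPM in recent KO. Here 4 of the 5 recent KO samples exceeded the highest WT sample, and replicate 3 was level with the lowest. On the log2 scale recent KO was higher by 1.53 ± 0.59 (edgeR adjusted p = 0.397, exact permutation p = 0.0635).

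*Ngp* (chr9:110419747-110423012) was at 15.8, 37.7, 25.8, 10.7 and 20.1 CPM in WT and at 42.3, 155, 7.62, 37.0 and 78.5 CPM in recent KO. Replicates 1, 2 and 5 of recent KO lay above all WT samples, and replicate 3 was the lowest of all 10. Its log2 fold change was 1.53 ± 0.56 (edgeR adjusted p = 0.361, exact permutation p = 0.119). Summed over *Ltf*, *Camp* and *Ngp*, the level ran from 13.6 to 57.4 CPM in WT and from 11.2 to 228 CPM in recent KO, with 4 of the 5 recent KO samples above the WT maximum. These 3 have the largest fold changes of the set in the same samples, so their sum is a description and was not tested. For the sum of all 10 genes, 3 of the 5 recent KO samples lay above the WT maximum.

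*Camp*, *Ngp* and *Ltf* lie within 1.195 Mb. Of the other genes between them, 17 were tested, of which 9 had a positive and 8 a negative fold change, with a median of 0.024 and 0 called in the edgeR fit (0 also at an unadjusted p under 0.05, and 0 by DESeq2 or limma).

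**Figure D1:**
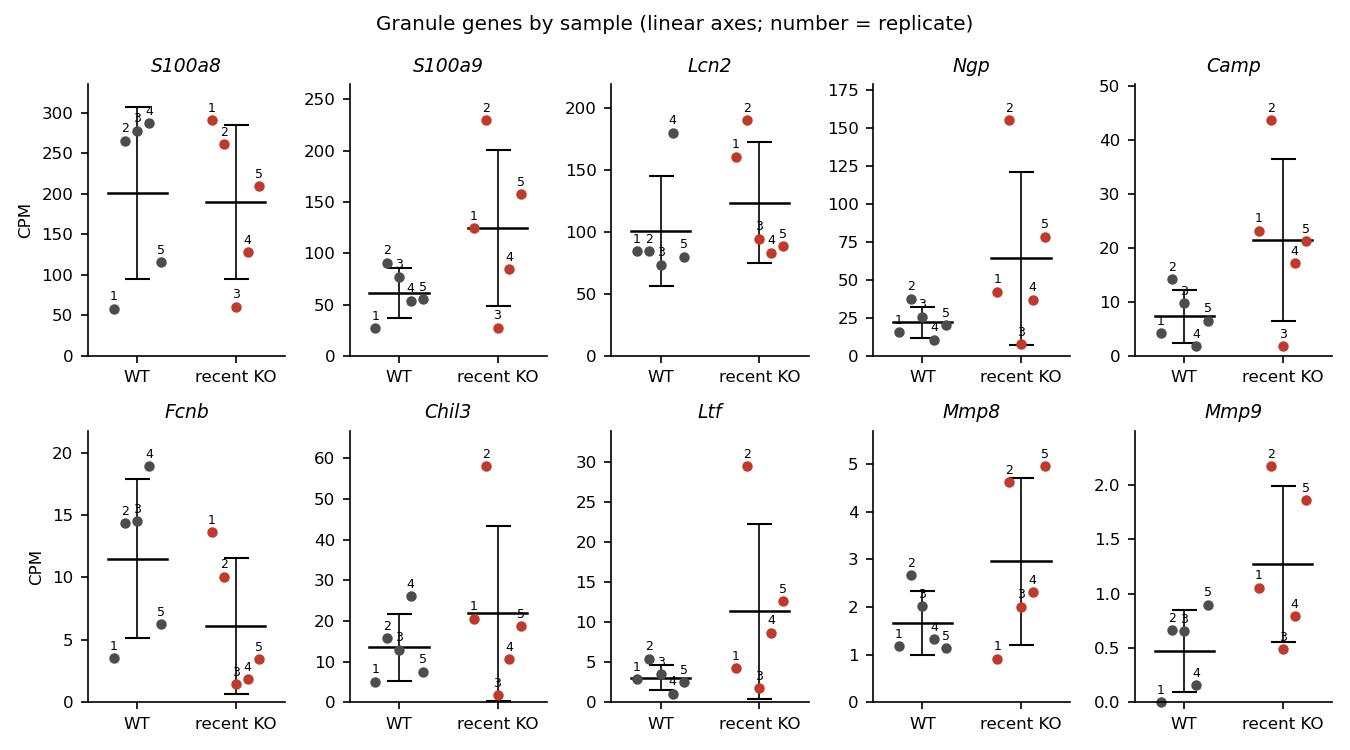
Normalised read counts (CPM, linear axes) of the 10 granule genes in 5 WT and 5 recent KO samples. Each dot is a sample with its replicate number, the long bar is the mean and the whisker the SD. Recent KO replicate 2 was the highest of all samples for 7 genes, and in every panel the groups overlap.

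The calcium-binding alarmins S100A8 and S100A9 form the heterodimer calprotectin, which is cytosolic rather than packed in granules and makes up much of the soluble protein of a neutrophil. Their genes are neighbours within 26.7 kb of chromosome 3 (chr3:90668978-90695721), with no other annotated gene between them. Their estimated fold changes differed, but the difference was not tested. *S100a8* was at 58.4, 265, 278, 287 and 116 CPM in WT and at 291, 261, 60.9, 128 and 210 CPM in recent KO. Samples of both groups spread over the same range, and the log2 fold change was -0.08 ± 0.43 (edgeR adjusted p = 0.969, exact permutation p = 0.873). The sign of this small difference turned with several of the settings tried.

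*S100a9* was at 27.3, 91.0, 77.4, 53.8 and 55.3 CPM in WT and at 124, 230, 27.4, 84.8 and 158 CPM in recent KO. Recent KO replicates 1, 2 and 5 exceeded every WT sample, and replicate 3 matched the lowest. The WT mean was 60.9 ± 24.4 CPM and the recent KO mean 125 ± 76.2 CPM (SD, n = 5 each). For *S100a9* the log2 fold change was 1.03 ± 0.43, with an unadjusted p of 0.0303 and an adjusted p of 0.425 in the edgeR fit (exact permutation p = 0.103). In the ratio of the 2 genes within a sample, *S100a9* over *S100a8*, WT samples lay between 0.188 and 0.477 and recent KO samples between 0.427 and 0.88, with 3 of the 5 recent KO samples above all WT samples. No test is given for this ratio.

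*Fcnb* (chr2:28076378-28084885) encodes ficolin B, a lectin of the complement system that is made earlier in granulocyte development than most of the set. It was at 3.52, 14.4, 14.5, 18.9 and 6.29 CPM in WT and at 13.6, 10.1, 1.47, 1.89 and 3.45 CPM in recent KO. Recent KO replicates 3, 4 and 5 lay below every WT sample, while replicates 1 and 2 lay within the WT range. The WT mean was 11.5 ± 6.37 CPM and the recent KO mean 6.10 ± 5.45 CPM (SD, n = 5 each), and the log2 fold change was -0.94 ± 0.57 (edgeR adjusted p = 0.622, exact permutation p = 0.183).

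Taken within a sample, *Camp* and *Fcnb* came apart. The ratio of *Camp* to *Fcnb* CPM was 1.18, 0.988, 0.676, 0.0947 and 1.04 in WT replicates 1 to 5 and 1.70, 4.33, 1.27, 9.06 and 6.15 in recent KO replicates 1 to 5. All 5 recent KO samples lay above all 5 WT samples, but the gap was narrow and rested on few reads. The closest samples were WT replicate 1 (85 *Camp* and 72 *Fcnb* reads) and recent KO replicate 3 (38 and 30 reads). The ratio of *Ngp* to *Fcnb* was 0.568 to 4.47 in WT and 3.10 to 22.7 in recent KO, with 4 of the 5 recent KO samples above the WT maximum. These ratios were chosen after the values had been seen, so no test is given for them.

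**Figure D2:**
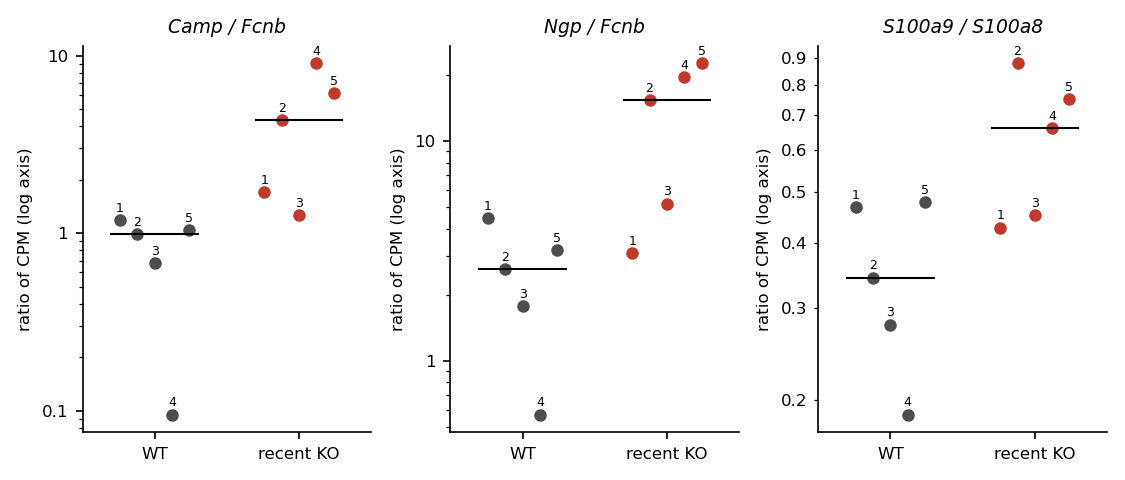
Ratios of CPM within each sample (log axes), for *Camp* over *Fcnb*, *Ngp* over *Fcnb* and *S100a9* over *S100a8*. Dots are samples with their replicate numbers and bars are group medians. The *Camp* to *Fcnb* ratio does not overlap between WT (at most 1.18) and recent KO (at least 1.27), and the other ratios do. That gap rests on few reads, and the ratios over *Fcnb* were chosen after the values had been seen.

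*Chil3* (chr3:106147554-106167564) encodes a chitinase-like lectin, Ym1, of neutrophils and some macrophages. It was at 5.14, 15.9, 12.9, 26.1 and 7.54 CPM in WT and at 20.6, 58.1, 1.71, 10.6 and 18.7 CPM in recent KO. Replicate 2 was the only recent KO sample above the WT maximum. The log2 fold change of 0.70 ± 0.63 (edgeR adjusted p = 0.78) became -0.06 when that sample was left out and 0.08 by limma on log2(TPM + 0.1). *Chil4*, whose transcript is 94.3% identical to that of *Chil3* over 1540 bases, had at most 0.111 CPM, so few reads were assigned to the near-identical copy.

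*Lcn2* (chr2:32384633-32388252) encodes lipocalin-2, which binds bacterial siderophores. It was at 84.7, 84.8, 73.7, 180 and 80.0 CPM in WT and at 161, 191, 94.6, 83.3 and 88.5 CPM in recent KO. High values lay in both groups, in WT replicate 4 and in recent KO replicates 1 and 2, and the other 7 samples lay between 73.7 and 94.6 CPM. Its log2 fold change was 0.30 ± 0.27 (edgeR adjusted p = 0.795). *Lcn2* followed the rest of the set least, with a Pearson r of 0.289 against the mean of the other 9 genes over 10 samples, each centred within its group. WT replicate 4, highest in WT for *Lcn2*, *Chil3*, *S100a8* and *Fcnb*, was the lowest of all 10 samples for *Ltf* and *Camp*.

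The matrix metalloproteinases of the set, neutrophil collagenase (*Mmp8*) and gelatinase B (*Mmp9*), were close to the limit of what this depth can measure. *Mmp8* (chr9:7558456-7568485) was at 1.18, 2.66, 2.02, 1.32 and 1.14 CPM in WT and at 0.914, 4.62, 2.00, 2.31 and 4.95 CPM in recent KO, from 13 to 96 reads a sample. Recent KO replicates 2 and 5 exceeded all WT samples, and the log2 fold change was 0.83 ± 0.41 (edgeR adjusted p = 0.512). *Mmp9* (chr2:164940780-164955850) was at 0, 0.666, 0.653, 0.155 and 0.898 CPM in WT and at 1.06, 2.17, 0.489, 0.792 and 1.86 CPM in recent KO.

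The *Mmp9* values rest on at most 36 reads a sample, and WT replicate 4 had 2 reads. The 0 reads of WT replicate 1 allow a level of up to 0.147 CPM, which 3 reads are worth in that sample, and the limit covers counting error only. Recent KO replicates 1, 2 and 5 were above every WT sample. For *Mmp9* the log2 fold change was 1.40 ± 0.63, with an unadjusted p of 0.0433 and an adjusted p of 0.462 in the edgeR fit (exact permutation p = 0.0794). No promoter sequence is shown for *Mmp9*.

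**Figure D3:**
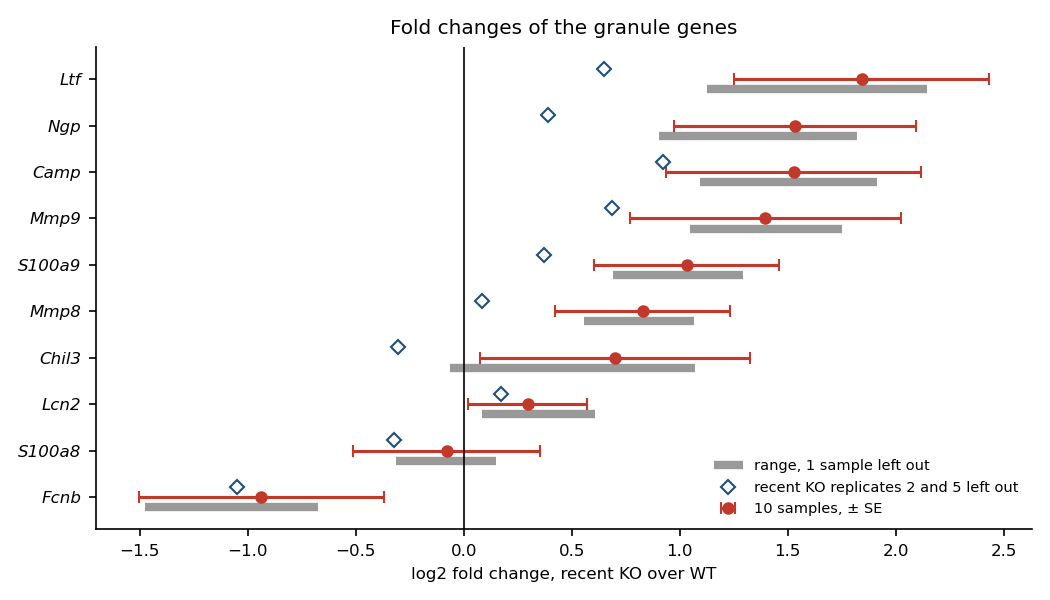
Log2 fold changes of recent KO over WT from the edgeR fit. Red dots are the estimates from all 10 samples with their SE, grey bars the range when 1 sample is left out, and open diamonds the estimate without recent KO replicates 2 and 5. Estimates ran from -0.94 for *Fcnb* to 1.84 for *Ltf*, and *Chil3* and *S100a8* have grey bars on both sides of 0.

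The recent KO samples differed widely among themselves. Recent KO replicate 2 was the highest of all 10 samples for 7 of the genes, and replicate 5 was second for 4. Replicate 3 was the lowest recent KO sample for 8 genes. Against the WT median, *Ltf* was 10.2-fold higher in replicate 2 and 4.37-fold higher in replicate 5, whereas replicate 3 held 0.609 of the WT median. For *Ngp* the same 3 ratios were 7.72, 3.90 and 0.379. The sum of all 10 genes ran from 203 to 581 CPM in WT (422 ± 163, SD, n = 5) and from 200 to 985 CPM in recent KO (568 ± 300, SD, n = 5). As a share of TPM, the read share corrected for transcript length, the set made up 0.0547 to 0.153% in WT and 0.0472 to 0.262% in recent KO.

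When recent KO replicates 2 and 5 were both left out, a choice made after the values had been seen, the log2 fold change was 0.65 for *Ltf*, 0.92 for *Camp*, 0.39 for *Ngp*, 0.37 for *S100a9* and 0.69 for *Mmp9*. *Fcnb* stayed at -1.05, *Chil3* was at -0.31, and the summed level of the set had a log2 ratio of -0.01, compared with 0.43 in all samples. Since these samples were left out for their high values, the estimates had to fall. Leaving out replicate 2 alone gave 1.13 for *Ltf*, 0.90 for *Ngp* and 0.13 for the summed level. Leaving out replicate 5 alone gave 1.80, 1.45 and 0.41.

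**Figure D4:**
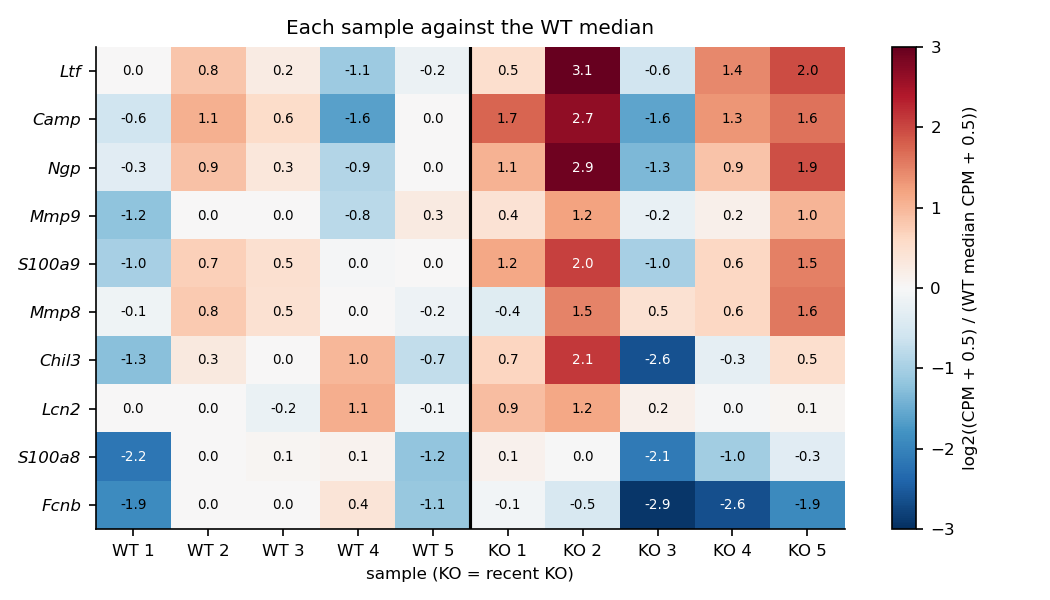
Each gene in each sample as log2 of its CPM over the WT median, with 0.5 CPM added to both. Red is above and blue below the WT median. Recent KO (KO) replicate 2 is red for 8 of the genes, replicate 3 is blue for most, and the *Fcnb* row is blue across all 5 recent KO samples.

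Levels can be ordered between genes only per length. By mean TPM the order in WT was *S100a8* (761 ± 360), *S100a9* (209 ± 75.3), *Lcn2* (124 ± 48.4), *Ngp* (18.1 ± 8.36), *Camp* (12.2 ± 7.81), *Fcnb* (10.7 ± 5.34), *Chil3* (8.70 ± 3.90), *Ltf* (1.42 ± 0.93), *Mmp8* (0.587 ± 0.226) and *Mmp9* (0.125 ± 0.103, all SD, n = 5). In WT, the ranges of neighbours in this order were separate between *Lcn2* and *Ngp*, *Chil3* and *Ltf*, and *Mmp8* and *Mmp9*, and overlapped for the other neighbours. The order in recent KO differed at a single place, with *Chil3* (14.2 ± 14.5) ahead of *Fcnb* (5.93 ± 5.04), and there all neighbours overlapped. Compared within samples, some orders held throughout. *S100a8* was above *S100a9*, *Lcn2* above *Ngp*, *Ltf* above *Mmp8* and *Mmp8* above *Mmp9* in all 5 samples of each group. Others did not, such as *S100a9* above *Lcn2* in 3 WT and 4 recent KO samples. Even the most abundant transcript, *S100a8*, was far below that of the primary granule gene *Elane*, which encodes neutrophil elastase and was at 9788 to 30840 TPM.

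Over the 10 samples, each gene centred within its group, *S100a9* tracked the mean of the other members most closely, with r = 0.98, followed by *Chil3* (0.91) and *Ngp* (0.899). *Mmp8* (0.463) and *Lcn2* (0.289) tracked it least. Outside the set, the genes most like its mean were *Dok3* (r = 0.964, Spearman's rho 0.879), *Smg9*, *Plekha2*, *Chdh*, *Myo7a*, *Pxylp1*, *Pik3r6*, *Rsrp1*, *Cd177* and *Clec12a* (r = 0.907). These coefficients describe shared variation of 10 libraries and carry no p. Without the 2 samples farthest from the median of the set, r was 0.877 for *Dok3* and 0.665 for *Clec12a*. *Cd177*, which encodes a neutrophil surface protein of secondary granules, was at 1.44 to 3.21 CPM in WT and at 3.80, 9.30, 1.27, 2.80 and 3.09 CPM in recent KO, again highest in replicate 2.

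Most of the other late granule genes that could be tested did not share the direction of the 10. Of 30 listed genes 18 were tested, 4 with a positive and 14 with a negative fold change, with a median of -0.247 and 0 called by edgeR, DESeq2 or limma, although 6 of them had an unadjusted p under 0.05 in edgeR. The most abundant of them, *Slpi* (a protease inhibitor), *Cyba* (a subunit of the NADPH oxidase), *Pglyrp1* (a peptidoglycan-binding protein) and *Hp* (haptoglobin), had log2 fold changes of -0.31, -0.21, -0.14 and -0.39. *Retnlg*, a resistin-like gene of neutrophils named here after its values were seen, had the largest positive value of the 18, at 3.23, 7.27, 4.28, 2.18 and 2.46 CPM in WT and at 9.14, 20.7, 4.59, 3.65 and 18.9 CPM in recent KO. Its 2 highest values lay in the same replicates 2 and 5, and its log2 fold change was 1.53 ± 0.47 (edgeR adjusted p = 0.246). *Retnlg* was called without the filter on low counts. Among the untested genes of this list, *Fpr1*, also named after its values were seen, had groups that did not overlap. It was at 0 to 0.178 CPM in WT and 0.1955 to 0.722 CPM in recent KO, from at most 14 reads a sample. The other untested genes overlapped between the groups.

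Primary granule genes had lower estimates throughout. All 15 listed genes had a negative log2 fold change, with a median of -0.289, and 0 were called by edgeR, although 7 had an unadjusted p under 0.05. Groups did not overlap for 1 of them, *Calr*, which encodes calreticulin, a chaperone of the endoplasmic reticulum rather than a granule protein. DESeq2 called 2 of the 15 lower, *Mpo* and *Calr*, and edgeR without a filter called 3, *Mpo*, *Elane* and *Prtn3*. *Mpo*, *Elane*, *Prtn3* (proteinase 3) and *Ctsg* (cathepsin G) had log2 fold changes of -0.52 ± 0.17, -0.63 ± 0.23, -0.47 ± 0.17 and -0.38 ± 0.14. As a percent of *Mpo* CPM, *Ngp* was 0.0155 to 0.0584 in WT and 0.024 to 0.294 in recent KO, with 4 of the 5 recent KO samples above the WT maximum. Of the 10 late genes, *Fcnb* and *S100a8* had the same negative sign, that of *S100a8* within its SE of 0.

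**Figure D5:**
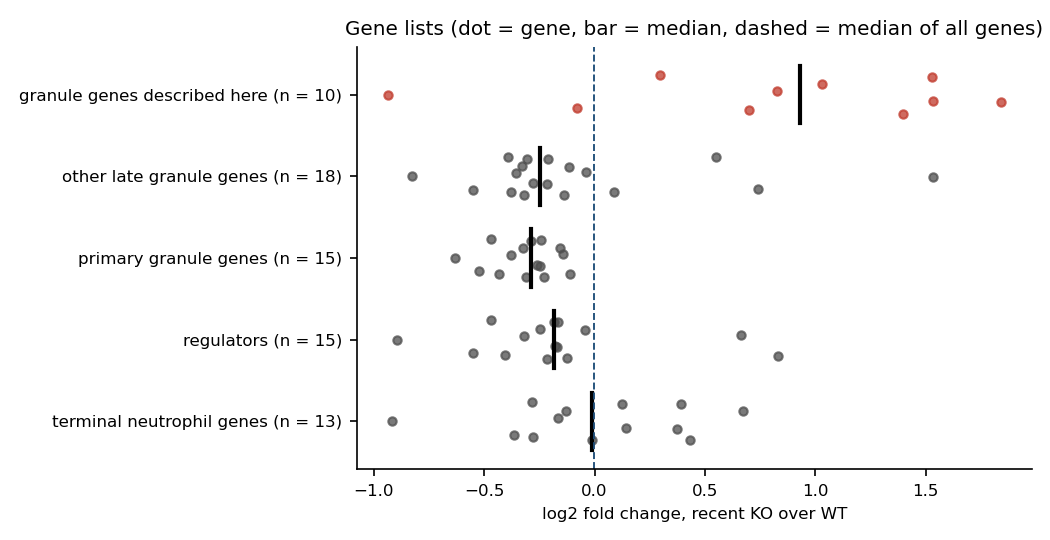
Log2 fold changes of recent KO over WT for the tested genes of 5 lists. Each dot is a gene, black bars are list medians and the dashed line is the median of all genes. The 10 granule genes have a median of 0.93, whereas all 15 genes of the primary granule list lie below 0.

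Markers of other cell types moved with some of these values. The 18 markers of mature neutrophils, of which 16 were detected in every sample and none was at 0 in all, summed to 485 to 620 CPM in WT and to 441 to 590 CPM in recent KO. Of the 14 tested, 7 were higher and 7 lower, with 0 called by edgeR, DESeq2 or limma. The 4 at an unadjusted p under 0.05 in edgeR were all higher in recent KO. *Ly6g*, not tested, was highest in recent KO replicates 2 (1.54 CPM) and 5 (1.44 CPM), the samples with the highest *Ltf*, and at most 0.776 CPM elsewhere. These *Ly6g* values rest on 22 and 28 reads. The 18 markers together did not follow it, with a sum of 461 CPM in replicate 2, below every WT sample, and 590 CPM in replicate 5. In a bulk sample, fewer cells of a type and less RNA per cell cannot be told apart. The part of mature neutrophils in the values of the set was not tested.

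The 10 monocyte markers summed to 2738 to 4096 CPM in WT and to 1051 to 3813 CPM in recent KO, and were lowest of all samples in recent KO replicate 3, as were 3 of the granule genes, *Ngp*, *Chil3* and *Fcnb*. None was called by edgeR (6 at an unadjusted p under 0.05, all lower in recent KO) and 1 by DESeq2, also lower. Erythroid markers summed to 49.8 to 90.0 CPM in WT and to 69.6 to 301 CPM in recent KO. *Hbb-bs*, an adult β-globin gene, was at 58.8, 37.2 and 38.8 CPM in recent KO replicates 3, 4 and 5, the samples with the lowest *Fcnb*, and at 2.84 to 11.1 CPM in all others. All 8 erythroid markers tested had positive fold changes, of which edgeR called 0 (6 at an unadjusted p under 0.05), DESeq2 and limma 0 and edgeR without a filter 6. Macrophage markers summed to 23.8 to 41.7 CPM in WT and to 43.6 to 74.97 CPM in recent KO, and 3 of the 10, the complement genes *C1qa*, *C1qb* and *C1qc*, were called higher by edgeR (adjusted p = 0.0406, 0.016 and 0.0383). The part of these cells in the *Fcnb* and *Chil3* values was not tested.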

How the data were processed

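RNA from CD45.2+ GMPs enriched for CD27 before the sort was amplified with the SMART-Seq v4 kit, which does not mark strand and adds no molecular identifiers, and sequenced in pairs. The authors quantified each sample with Salmon against GENCODE M27, and deposited per transcript the estimated counts, TPM (a read share normalised by the authors to transcript length) and the effective length. The deposited table of the authors' own fold changes and p-values was not used.

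Estimated counts were rounded after summing over transcripts. Transcripts were assigned to genes with GENCODE M21 on GRCm38, an older annotation, which matched 137161 of 140789 transcripts (97.4%) and left 0.348 to 0.390% of reads unassigned. Coordinates are those of GRCm38. Counts were tested in edgeR 4.0.16 (R 4.3.3) with TMM normalisation, a minimum count of 10 and the quasi-likelihood test, 5 WT against 5 recent KO, adjusted over 12381 genes at a threshold of 0.05. CPM are TMM-scaled. Single genes also had an exact permutation test. The procedure was tested on simulated data.

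The 10 genes and the lists of other late granule, primary granule, regulator, terminal neutrophil and cell type marker genes were chosen with earlier results of these data known. Within lists, called genes and the 4 most abundant by TPM were named (1 of them is not reported here), as were the 10 genes most like the set. Alternatives were library-size and DESeq2 1.42.0 normalisation and testing, other filters, limma 3.58.1 on log2 TPM, a replicate block, leaving out each sample, and, added after the data were seen, leaving out recent KO replicates 2 and 5. Transcripts were compared with BLAST 2.17.0. Depth was 14033776 to 19745405 reads a sample, with 14.9 to 21.6% in the 20 most abundant genes.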

Additional observations from a re-analysis of the deposited data

Results flagged for a closer look

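*Lcn2* was at 180.2 CPM in WT replicate 4, far above the other WT samples, which lay between 73.7 and 84.8 CPM. In the same sample *Hp*, a late granule gene encoding haptoglobin, was at 912.0 CPM, compared with 554 to 618 CPM in the other WT samples, and *Cebpb*, which encodes a transcription factor of emergency granulopoiesis, was at 115.6 CPM, compared with 56.6 to 73.0 CPM. *Clec4d*, a C-type lectin gene of the terminal neutrophil list, was at 31.9 CPM in recent KO replicate 1 and between 22.01 and 24.1 CPM in the remaining samples of its group. Among the 10 granule genes 1 of 20 groups stood out in this way, and among the 46 genes named 4 of 92 groups did. Chance would give about 1 and 4.6 if genes varied independently. *Lcn2*, *Hp* and *Cebpb* stood out in the same sample, so these figures cannot settle whether that sample is unusual. *Lrg1* and *Wfdc21*, of the companion lists, were also high in WT replicate 4, at 49.2 and 91.0 CPM. The other WT samples had 5.49 to 8.49 and 8.08 to 19.4 CPM. *Ltf* and *Camp* were lowest there.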

How the results depend on the processing

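Of 214 recalculations of the 10 log2 fold changes, 202 kept both sign and side of the threshold, 4 passed it, 8 changed sign and 0 lost a call, there being none to lose. Without a filter on low counts 4 of the genes were called, *Ltf* (adjusted p = 0.00314), *Camp* (0.0195), *Ngp* (0.00848) and *S100a9* (0.0331, all edgeR), with the same fold changes and smaller SEs, and 206 genes were called in all. The cause was not tested. DESeq2 called 156 genes, limma 25 and 24 on log2(TPM + 1) and log2(TPM + 0.1), and leaving out 1 sample gave 25 to 91, the highest without recent KO replicate 2 and the lowest without recent KO replicate 3 or 4, with 26 without WT replicate 3. *S100a8* changed sign with library-size scaling (0.0101) and ranged from -0.32 to 0.15 with 1 sample left out. *Chil3* ranged from -0.062 to 1.07, reversed without recent KO replicate 2, and was -0.306 without replicates 2 and 5, a choice made after seeing the data that left 0 of the 10 genes called. Samples with the same number did not deviate together (correlations 0.058, -0.155, -0.088, -0.032 and -0.177), so they share only a number, and the replicate block gave 20 calls, none among the 10 genes. *Mmp8* and *Mmp9* fell below the filters on a mean count of 50 and on TPM, and at 0 to 96 reads a sample their depth limits what can be seen.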

Other observations

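Regulators of granulocyte differentiation had mostly lower estimates. Of 15 tested, 13 had a negative and 2 a positive log2 fold change, with a median of -0.183 and 0 called by edgeR, DESeq2 or limma, although 9 had an unadjusted p under 0.05 in edgeR. Without a filter on low counts edgeR called 3, *Cebpe* and *Irf8* lower and *Gata2* higher. *Spi1*, which encodes PU.1, was at -0.25 ± 0.08, *Myb* at -0.17 ± 0.07, *Cebpb* at -0.41 ± 0.17 and *Irf8* at -0.55 ± 0.18. *Cebpe*, named after its values were seen because specific granule genes depend on C/EBPε, was at 41.7 to 59.8 CPM in WT and at 24.5 to 44.8 CPM in recent KO (-0.47 ± 0.16, adjusted p = 0.305 by edgeR). Its lowest values were in recent KO replicates 2 (27.8 CPM) and 3 (24.5 CPM), the samples with the highest and the lowest *Ltf* of that group.

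Terminal neutrophil genes split evenly in sign, with 6 of 13 tested higher and 7 lower, a median of -0.013, and 0 called by edgeR, DESeq2 or limma. The 3 at an unadjusted p under 0.05 in edgeR were all higher in recent KO. *Msrb1*, *Csf3r* (the G-CSF receptor) and *Clec4d* had log2 fold changes of -0.28, -0.16 and 0.43. *Clec4d* had groups that did not overlap, at 15.6 to 21.3 CPM in WT and 22.01 to 31.9 CPM in recent KO (adjusted p = 0.199 by edgeR). Among B cell markers, *Ighm* was called lower by edgeR, with a log2 fold change of -0.78 (adjusted p = 0.0468). In the remaining marker lists edgeR called 0 genes. At an unadjusted p under 0.05 stood 4 of 7 GMP markers tested (all lower in recent KO) and 4 of 6 eosinophil markers (2 higher, 2 lower). So did 3 of 7 basophil and mast cell (2 higher, 1 lower), 3 of 3 megakaryocyte (all higher) and 1 of 4 dendritic cell markers (higher). The same held for 2 of 6 stem cell (both higher) and 0 of 1 T and NK cell markers. DESeq2 called 2, 0, 1, 1, 1, 0 and 0 genes of these lists in the same order. The 2 GMP markers were *Mpo* and *Fcgr3*, both lower. *Fcgr3*, an Fc receptor gene, was at 357 to 456 CPM in WT and 153 to 318 CPM in recent KO, with no overlap (adjusted p = 0.107 by edgeR). Of the 7 GMP markers, 3 had a positive and 4 a negative fold change.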
